A study of Homo sapiens with 6 samples.

Results

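The E2F and DP genes encode a family of transcription factors that control entry into S phase, and Myc occupancy at these genes was compared between parental MDA-MB-231 cells and TKO cells. The members were the 8 E2F genes, E2F1 to E2F8, and the DP partner genes TFDP1 and TFDP2, and they were taken by name, 10 of 20162 protein-coding genes in the annotation. Parental cells are the unedited human triple-negative breast cancer line MDA-MB-231, an established cell line, and TKO cells are its derivative in which CRISPR/Cas9 editing removed TXNIP, the thioredoxin interacting protein. Knockout clones were grown from single cells, so any other property of a clone cannot be told apart from loss of TXNIP. Myc ChIP-seq gave 2 libraries for each of the lines, and every library had a peak list of its own. The question was whether loss of TXNIP changed Myc binding at these genes. The lists hold no expression values, so the knockout itself could not be checked here.

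E2F proteins bind promoters of genes for DNA synthesis and the cell cycle, in most cases as a dimer with a DP protein. Pocket proteins of the retinoblastoma family hold them inactive or turn them into repressors until cyclin-dependent kinases phosphorylate the pocket proteins. E2F1, E2F2 and E2F3 are known mainly as activators, E2F4 and E2F5 act mostly with pocket proteins in repression, E2F6 represses together with Polycomb proteins, and E2F7 and E2F8 repress and need no DP partner. Myc binds DNA with its partner Max, with the highest affinity at the canonical E-box CACGTG, and activating E2F genes are among its long-known targets.

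A peak was given to a member when its summit lay no more than 5 kb from a start site (TSS) that belongs to a basic GENCODE transcript of the gene. Offsets are distances from the nearest such TSS, with negative values upstream. The percentile of a peak is the share of peaks of its own list with a lower fold, where fold is the authors' enrichment of summit reads over the local background. The height of a peak is its summit reads, scaled as the peak caller scaled them and divided by the genome-wide background of the same library. Parental replicates 1 and 2 had 3720 and 5719 peaks and recovered depths of 26.4 and 22.2 M reads. TKO replicates 1 and 2 had 27213 and 25887 peaks and depths of 19.9 and 13.0 M reads. The lowest height in a list was 9.49 and 8.06 in the parental libraries and 6.69 and 7.21 in TKO, so lower summits were not detectable. Calls were made against the local background, so higher summits could also be missed where that background was high. The absence of a peak therefore sets no upper bound at these values. Because the TKO lists are longer, the share of all genes with a peak is printed beside each count of members. For the same reason, percentiles of TKO and parental peaks are not on the same scale. Over all genes with a peak, the strongest peak had a median percentile of 56.7 and 56.8 (parental) and 71.8 and 71.1 (TKO).

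The members carried 33 peaks, 6 in the parental libraries and 27 in TKO, which merged into 14 sites. Sequences are shown for sites where an E-box lay under a Myc peak, and for the E2F1 and E2F2 promoters, which hold E2F motifs. The letters can so be read against the values that follow. The sequences were read from GRCh37, the build of the files (hg19), in the direction of the gene, and the capitals mark the motif. The first set holds the canonical E-boxes at the members.
E2F1, chr20:32273519-32273548, minus strand, intron: ataataatagccCACGTGtattcaactggc
E2F3, chr6:20403753-20403782, plus strand, intron: tgacgtttcgcaCACGTGcgcgcaggacgc
E2F6, chr2:11605752-11605781, minus strand, intron: ggcgctgcccatCACGTGctgcgaactgcg
E2F6, chr2:11606177-11606206, minus strand, 5′ UTR: ggagctcccgggCACGTGaggccgtgccgc
E2F8, chr11:19262203-19262232, minus strand, 5′ UTR or intron by transcript: gctgagcctgtgCACGTGtgtgtaagggga

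TFDP1 had 3 E-boxes in one short stretch upstream of its TSS, each 42 bp from the next, and they are shown together because its only Myc summit lay among them.
TFDP1, chr13:114238509-114238622, plus strand, intergenic: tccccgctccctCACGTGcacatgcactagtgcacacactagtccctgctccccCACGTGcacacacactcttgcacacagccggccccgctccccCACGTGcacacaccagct

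The E2F1 and E2F2 promoters are shown for the E2F motif, which lay within 50 bases of their TSS. The forms searched were TTTGGCGC, TTTCCCGC, TTTGCCGC and TTTCGCGC on both strands, so the reverse complements are in capitals too.
E2F1, chr20:32274192-32274241, minus strand, the 50 bases before the TSS: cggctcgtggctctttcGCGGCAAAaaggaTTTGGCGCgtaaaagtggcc
E2F2, chr1:23857726-23857775, minus strand, the 50 bases before the TSS: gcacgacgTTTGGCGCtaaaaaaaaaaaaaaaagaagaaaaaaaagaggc

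Myc peaks were present at most members in TKO cells and at few in the parental line. Of the 10 members, 2 had a peak in parental replicate 1 (E2F5 and E2F6) and 3 in parental replicate 2 (the same pair and E2F3). The background was 13.9% and 15.5% of all protein-coding genes in these libraries. In TKO replicates 1 and 2, 9 and 7 members had a peak, against a background of 54.5% and 55.4%. A peak in both TKO libraries was called at 7 members, where 50.6% of all genes had one. E2F2, E2F4, E2F7 and E2F8, 4 members in all, had peaks in both TKO libraries and in no parental library, a class that held 32.4% of all genes. E2F5 and E2F6 had peaks in all 4 libraries, as did 10.9% of all genes. TFDP2 alone had no peak in any library, as was the case for 40.6% of all genes. The members with a parental peak, E2F3, E2F5 and E2F6, also had peaks in both of the longer TKO lists. The matching share over all genes with a parental peak was not computed. The count of 4 members with peaks in both TKO libraries and no parental library fell to 1, E2F3, when each list was cut to its 3720 peaks of highest fold, and the share of all genes in that class was then 2.62%.

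**Figure D1:**
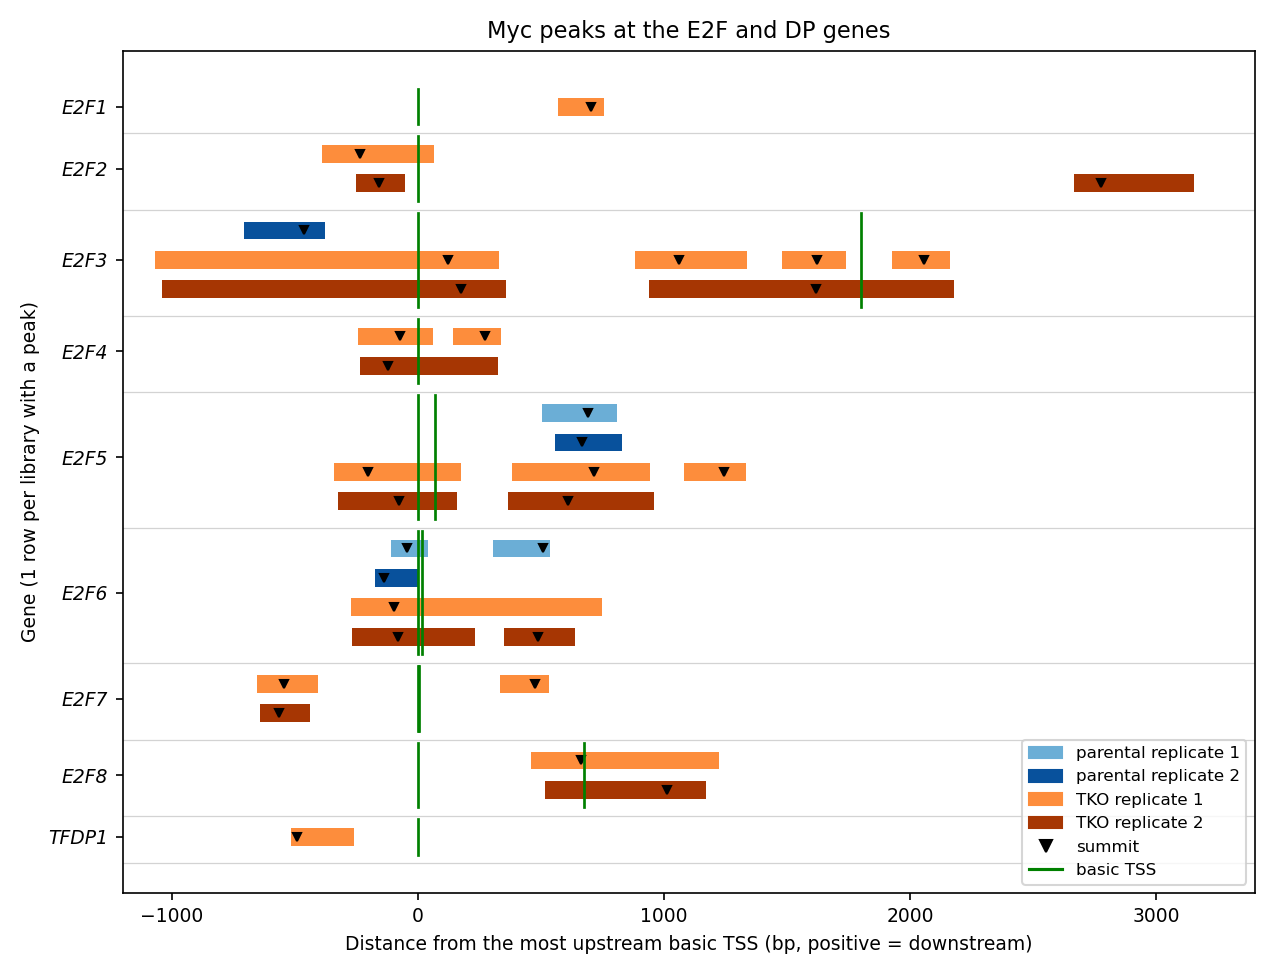
Myc peaks at the 9 members that had any, drawn by distance in bp from the most upstream basic TSS of each gene (x axis, positive downstream), with 1 bar per peak in a row for each library and a triangle at the summit. A green line marks each basic TSS less than 5 kb from the most upstream one, so the far downstream TSS of E2F5 has no line. Of the 14 sites, only those at E2F5 and E2F6 have bars from all 4 libraries, and each library has an E2F6 bar at the TSS, with a further bar downstream in parental replicate 1 and TKO replicate 2, while the E2F5 site of all 4 libraries lies downstream of the TSS of E2F5.

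E2F1, the best known activator of the family, had a single peak. It was called in TKO replicate 1 at chr20:32273435-32273622, in an E2F1 intron, with the summit at +701 bp. The peak was 188 bp wide, near the narrowest of its list (width percentile 6.69), and its 23 summit reads gave a height of 17.1 and percentile 30.8. The other 3 libraries had no peak within 5 kb, and the nearest one lay 22451 bp away in TKO replicate 2 and over 100 kb away in the parental line (124802 and 103365 bp). The intronic E-box shown above was 44 bp from the summit. A further E-box at -369 bp and the pair of E2F motifs just before the TSS were under no peak in any library.

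E2F2, also an activator, had peaks in TKO only. At its promoter the summit lay at -234 bp with height 14.1 and percentile 67.7 in TKO replicate 1, and at -160 bp with height 12.4 and percentile 39.1 in TKO replicate 2. These summits were 74 bp apart, at chr1:23857658-23858115 when merged. The widths were 458 and 203 bp. A peak in an E2F2 intron, at +2776 bp, was called in TKO replicate 2 alone, with height 18.6 and percentile 23.8. It was higher than the promoter peak in reads (18 against 12) but stood on a higher local background (3.26 against 1.56 times the genome-wide background). No canonical E-box lay within 1 kb of the E2F2 TSS. The E2F motif printed above was inside the promoter peak of TKO replicate 1, 196 bp from its summit, and a further one lay 126 bp from the summit on the other side.

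E2F3, the third activator, has 2 basic TSS, 1 for each of its main isoforms, and was the activator with the strongest Myc peaks. At the upstream TSS, parental replicate 1 had no peak, and parental replicate 2 had one at -462 bp with height 21.8 and percentile 24.1. In TKO the peaks there had summits at +122 and +175 bp, heights of 32.7 and 28.9 and percentiles of 95.9 and 92.3. The TKO peaks were among the widest of their lists at 1398 and 1400 bp (width percentiles 99.3 in each), and the summits lay in the 5′ UTR. The parental summit was 86 bp from the TSS of a noncoding gene, ENSG00000289981, and inside its exon, so it lay nearer to that TSS than to the one of E2F3. The merged site spanned chr6:20401043-20402468, and its summits were spread over 637 bp. An E2F motif at -50 bp was under both TKO peaks, 172 and 225 bp from their summits.

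Around the downstream E2F3 TSS, TKO cells had a separate site at chr6:20402990-20404288 that no parental library had. TKO replicate 2 covered it with 1 peak of 1241 bp (summit at -182 bp, height 24.7, percentile 86.2). TKO replicate 1 split it into 3 peaks with summits at -740, -177 and +258 bp, heights of 21.6, 21.6 and 13.4 and percentiles of 74.3, 84.7 and 29.3. The summits nearest the TSS in the replicates were 5 bp apart, and the E2F3 E-box lay 35 and 40 bp from them. With 4 peaks in TKO replicate 1, E2F3 had the most of any member in any library, and 4.56% of genes with a peak in that library had as many. Its strongest peak was matched or exceeded by 10.5% of such genes in TKO replicate 1 and 16.8% in TKO replicate 2.

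E2F4, the most abundant partner of pocket proteins in quiescent cells, had a promoter peak in TKO only. In TKO replicate 1 the summit at -73 bp had height 17.1 and percentile 77.6, and an intronic peak at +274 bp had height 12.6 and percentile 59.4. TKO replicate 2 joined both positions in 1 peak of 564 bp with its summit at -122 bp, height 14.4 and percentile 48.4. All 3 peaks formed a single site over the TSS, at chr16:67225815-67226394. The nearest E-box to these summits was 3490 to 3886 bp away, and no E2F motif lay within 1 kb of the TSS. Parental peaks were 318862 and 85334 bp away.

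E2F5, the other member that acts mainly with pocket proteins, had the Myc peak of highest fold of the family in all 4 lists. By height its peak was also first in both TKO lists and in parental replicate 1, but not in parental replicate 2. The site at chr8:86089753-86090350 was the one called in all 4 libraries. Its height was 21.2 and 13.7 in parental replicates 1 and 2, and 61.7 and 62.9 in TKO replicates 1 and 2. All TKO values were above all parental values, by a factor of 2.92 to 4.59 over the 4 pairs of libraries. The summit reads behind these heights were 29, 17, 83 and 61, and the exact Poisson 95% intervals of the heights were 14.2 to 30.4, 7.98 to 21.9, 49.2 to 76.5 and 48.1 to 80.7 in the same order. These intervals cover counting error only. The mean height was 17.4 ± 5.28 (SD, n = 2) in the parental line and 62.3 ± 0.790 (SD, n = 2) in TKO, and the ratio of the geometric means was 3.66, or 1.87 on the log2 scale. The two-sided exact permutation test returned p = 0.333, and with 2 libraries on each side no lower p can be reached, so no member could pass a usual threshold in this test.

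The E2F5 site ranked 77 of 27213 peaks in TKO replicate 1 and 90 of 25887 in TKO replicate 2 (percentiles 99.7 in each). Of the genes with a peak, 0.864% and 0.940% had one as strong or stronger. In parental cells it ranked 223 and 1094, and 7.84% and 25.4% of genes with a peak had one as strong. The summits lay within 103 bp of each other in an E2F5 intron, at +621, +597, +643 and +540 bp. The nearest TSS was not that of E2F5 but that of a noncoding gene, ENSG00000254208, at 304, 328, 282 and 385 bp. When a peak was counted only for the gene of the nearest TSS, E2F5 had none, and the number of members bound in all 4 libraries was 1. No canonical E-box lay within 1 kb of an E2F5 TSS.

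At the E2F5 promoter itself Myc peaks were called in TKO only. The summit was at -203 bp with height 28.3 and percentile 70.1 in TKO replicate 1, and at -79 bp with height 36.1 and percentile 84.4 in TKO replicate 2. The region is shared with E2F5-DT, a divergent noncoding gene whose TSS was 90 and 13 bp from the summits. The local background was high there, 3.60 and 3.26 times the genome-wide background of the library, against 1.53 times at the intronic site in both TKO libraries. An E2F motif, TTTGCCGC, lay 15 bp from the summit in TKO replicate 1 and 110 bp from that of TKO replicate 2, and it was the only E2F motif within 50 bp of any member summit. A weaker peak at +1172 bp, with height 14.1 and percentile 38.8, was called in TKO replicate 1 alone.

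E2F6, which lacks the domain for pocket protein binding and represses with Polycomb proteins, had peaks at its TSS in all 4 libraries. Its strongest peak had height 16.8 and 16.1 in parental replicates 1 and 2 and 24.5 and 35.0 in TKO replicates 1 and 2. All TKO values were above all parental values, but the TKO replicates differed from each other by more than the lower of them differed from the parental ones. The mean height was 16.5 ± 0.472 (SD, n = 2) in the parental line and 29.8 ± 7.42 (SD, n = 2) in TKO, and the ratio of the geometric means was 1.78 (0.83 on the log2 scale, 1.46 to 2.17 over the pairs, exact permutation p = 0.333). The percentiles were 65.9 and 51.1 in the parental line and 87.6 and 94.3 in TKO, from lists of unlike length. The summits of the strongest peaks lay at -43, -137, -97 and -80 bp, a spread of 94 bp, and the site spanned chr2:11605555-11606577.

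A second E2F6 summit lay inside the gene and was called as a separate peak in 1 library of each cell line. In parental replicate 1 it was at +490 bp with height 11.7 and percentile 7.49. In TKO replicate 2 it was at +471 bp with height 26.8 and percentile 88.8. TKO replicate 1 had a single peak of 1023 bp over both positions, and parental replicate 2 had none at the second. The intronic E-box of E2F6 lay 31 and 50 bp from these second summits, while the one in the 5′ UTR was 155 to 249 bp from the main summits. Both E-boxes were under peaks in TKO. In the parental libraries the one in the 5′ UTR was under no peak, and the intronic one lay across the edge of the second peak of parental replicate 1, which held all but 1 of its bases.

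E2F7, an atypical E2F that represses E2F1 and other targets, had peaks in TKO only, and by percentile they were among the weaker ones of the family. At -543 and -563 bp the heights were 24.5 and 20.6 in TKO replicates 1 and 2, yet the percentiles were 58.2 and 21.6. Fold is taken over the local background, which was 3.60 and 3.804 times the genome-wide background there. The site lay at chr12:77459756-77460005 with summits 20 bp apart, upstream of the gene and not over the TSS. A second peak at +468 bp in TKO replicate 1 had height 10.4 and percentile 22.7. No canonical E-box lay within 1 kb of the TSS. A non-canonical E-box, CATGTG, was 11 bp from the summit of TKO replicate 1 and is shown because it was the motif nearest to an E2F7 summit.
E2F7, chr12:77459888-77459917, minus strand, intergenic: gtaaccatggttCATGTGtcacaccagcgt

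E2F8, the other atypical member, had a stronger peak in TKO and none in the parental line. The heights were 26.8 and 29.9 and the percentiles 76.7 and 89.8 in TKO replicates 1 and 2. The peaks, 765 and 652 bp wide, overlapped at chr11:19261944-19262708, but the summits were 347 bp apart. The summit in TKO replicate 1 was at -11 bp of the downstream of 2 TSS, and the one in TKO replicate 2 was at +336 bp. Both lay inside an intron of CSRP3-AS1, a noncoding gene that overlaps E2F8. The E2F8 E-box was between the summits, 286 and 62 bp from them. The summit of TKO replicate 2 stood 3 and 28 bp from non-canonical E-boxes, which are shown because they were nearer to it than the canonical one (CACGCG and CACGAG, read here on the other strand).
E2F8, chr11:19262139-19262168, minus strand, 5′ UTR or intron: gttacttggggtCGCGTGcgctcagctggg
E2F8, chr11:19262114-19262143, minus strand, 5′ UTR or intron: ctgggacctgggCTCGTGcgcttagtccgg

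TFDP1, which encodes DP1, the common dimer partner, had a single weak peak. It was called in TKO replicate 1 at chr13:114238553-114238808, with the summit at -493 bp, 12 summit reads, height 8.93 and percentile 47.1. This was the lowest height among the member peaks. The peak stood among the 3 E-boxes printed above, the middle one 10 bp from the summit and the last 33 bp away. The first E-box lay outside the peak. TKO replicate 2 had its nearest peak 62904 bp away, and the parental libraries had theirs 591993 and 135504 bp away.

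TFDP2, which encodes the other DP partner, had no peak within 5 kb of its 7 basic TSS in any library. The nearest summits were 60145 and 37694 bp away in TKO and 130599 and 130637 bp away in the parental line. When all GENCODE transcripts were used and not only the basic ones, TFDP2 had a peak in both TKO libraries and in no parental library.

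**Figure D2:**
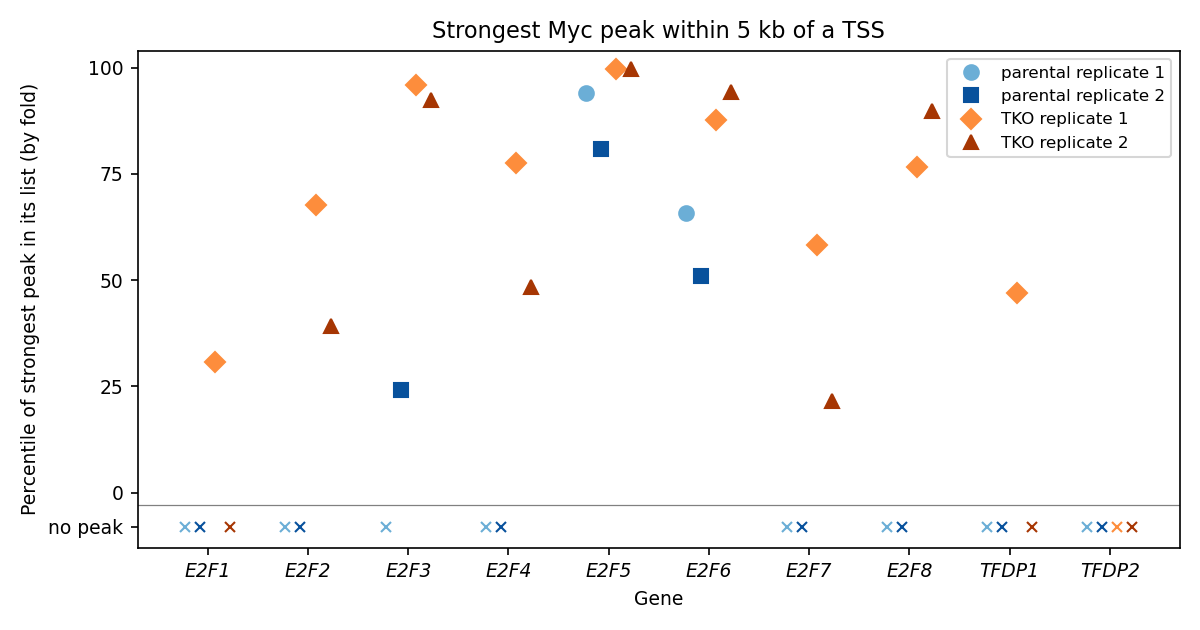
Percentile by fold of the strongest peak of each member within its own list (y axis), with crosses in the lower band where a library had no peak within 5 kb. E2F5 is highest in both TKO lists at 99.7, E2F3 and E2F6 lie at 87.6 or higher in both, and crosses fill the parental positions of E2F1, E2F2, E2F4, E2F7, E2F8, TFDP1 and TFDP2.

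By the height of the peak of highest fold, the order of the members was similar but not the same in the TKO libraries. E2F5 was highest in both, and the next was E2F3 in TKO replicate 1 and E2F6 in TKO replicate 2. E2F3, E2F6 and E2F8 changed places between replicates, so the order among them was not beyond the spread of replicates. E2F7 stood at 24.5 and 20.6, level with E2F6 in TKO replicate 1, then E2F4 at 17.1 and 14.4 and E2F2 at 14.1 and 12.4. E2F7, E2F4 and E2F2 kept this order in both replicates for these peaks, but the intronic peak of E2F2 in TKO replicate 2, of lower fold, had a height of 18.6, above that of E2F4. The median percentile of the strongest peak over the members that had one was 76.7 and 89.8 in TKO, against 71.8 and 71.1 over all genes with a peak. In parental cells it was 79.95 over 2 members and 51.1 over 3, against 56.7 and 56.8 over all genes with a peak.

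**Figure D3:**
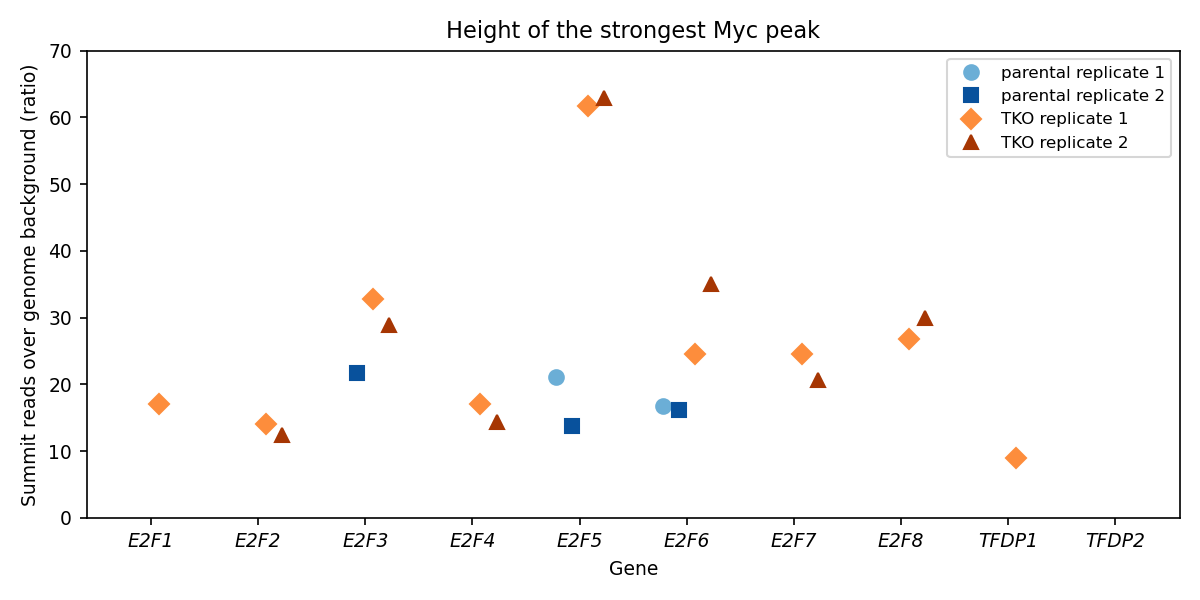
Height of the peak of highest fold of each member (y axis, ratio of summit reads to the genome-wide background of the library), with 1 symbol per library and none where no peak was called. The E2F5 values in TKO, 61.7 and 62.9, stand apart from every other value, the next being 35.0 at E2F6 in TKO replicate 2.

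The difference at E2F5 and E2F6 was set beside that of all genes bound in every library. Over 2190 protein-coding genes with a peak in all 4 libraries, the median TKO over parental ratio of height was 1.93 (quartiles 1.68 to 2.17), and 98.8% of genes were above 1. The E2F6 ratio of 1.78 was within these quartiles, and 65.3% of genes had a ratio as large. The E2F5 ratio of 3.66 was matched or exceeded by 0.228% of genes. Its height of 13.7 in parental replicate 2 was low for that list, where percentile 1 of height was 12.1 and the median 21.8. The E2F5 ratio was 2.94 without parental replicate 2 and 4.55 without parental replicate 1. Reads were extended by different lengths in the lists, with narrowest peaks of 140 and 151 bp in the parental line and 182 and 201 bp in TKO, and the part of this in the ratios was not tested. By the deposited fold over local background the E2F5 ratio was 3.09 and the E2F6 ratio 1.85, and the median over all such genes was 1.98.

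**Figure D4:**
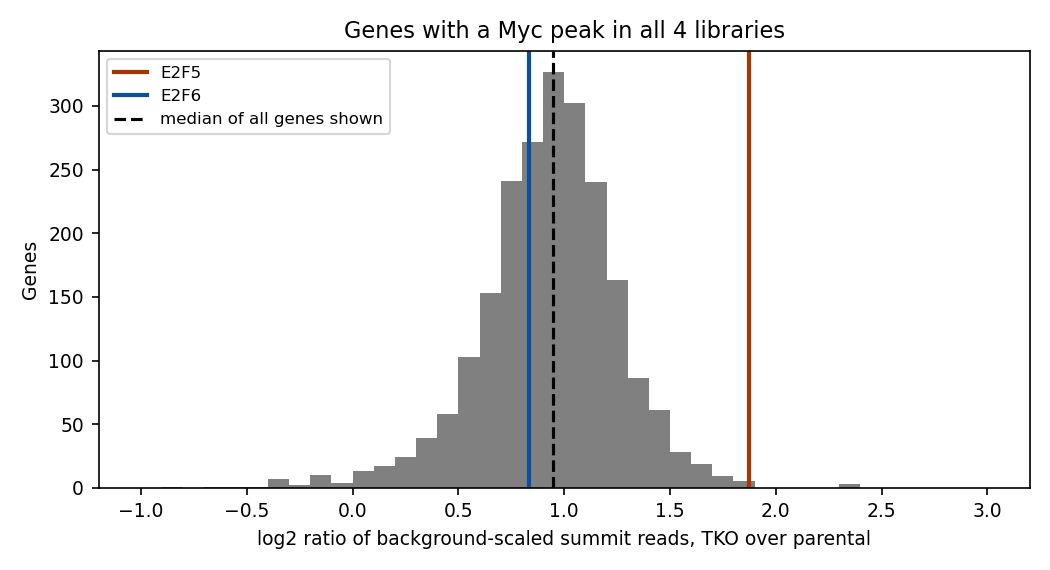
Histogram of the TKO over parental ratio of peak height (x axis, log2) for the 2190 protein-coding genes with a Myc peak in all 4 libraries (y axis, number of genes), with the median of all genes dashed. The line of E2F6 at 0.83 is near the median of 0.94, and that of E2F5 at 1.87 is in the right tail.

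The canonical E-box was sought within 50 bp of each summit on both strands, and was counted only when all of its letters lay in that window. Printed distances run to the middle of the motif, so the E2F6 E-box at 50 bp from a summit of TKO replicate 2 was cut by the edge of the window and is not counted. It was present at 1 of 3 member peaks in parental replicate 1 and 0 of 3 in parental replicate 2, where 22.4% and 18.4% of all peaks near a protein-coding TSS held one. In TKO it was present at 3 of 16 and 1 of 11 member peaks, against 8.48% and 7.34% of such peaks. Windows 1 kb away held it at 1.38% to 1.602%. The members whose strongest TKO peak had an E-box were E2F1 and TFDP1, and both rest on TKO replicate 1 alone. E2F5, with the strongest peaks, had no canonical E-box there. Non-canonical E-boxes (the letters CACGCG, or else CATGTG, or else CATGCG, or else CACGAG, on both strands) were found at 1, 1, 3 and 4 member peaks in the 4 libraries in order, against 32.6%, 31.3%, 21.3% and 19.3% of all such peaks. At the E2F5 site of all 4 libraries, non-canonical forms lay within 50 bp of the summit in parental replicate 2 (1) and TKO replicate 2 (2). Parental replicate 1 and TKO replicate 1 had 0 there. The E2F5 promoter summits had 1 and 2 in TKO replicates 1 and 2. The E2F motif was found at 1 of the 33 member peaks, against 1.42% to 2.03% of all such peaks.

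Within 1 kb of a TSS, with or without a peak, 5 of 10 members held a canonical E-box (E2F1, E2F3, E2F6, E2F8 and TFDP1), as did 35.6% of all protein-coding genes. The E2F motif lay within 1 kb of a TSS at 7 of 10 members (E2F1, E2F2, E2F3, E2F5, E2F7, E2F8 and TFDP1) and at 17.3% of all genes. E2F4, E2F6 and TFDP2 had no E2F motif there. A match of letters is a description and not a site of binding. GC content within 100 bp of the summit was 63.4% and 64.7% at the median of member peaks in TKO and 62.7% and 63.7% over all such peaks.

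Genes of the same pathway were counted in the same way. Of 10 genes for RB family pocket proteins, MuvB subunits and the activators MYBL2 and FOXM1, which join MuvB without pocket proteins, 1 had a peak in parental replicate 1 and 0 in parental replicate 2, against 13.9% and 15.5% of all genes. That gene was RBL1, which encodes the pocket protein p107, at percentile 1.32, and it is named after its value was seen. In TKO 7 and 10 of these genes had a peak, where 54.5% and 55.4% of all genes had one. Both TKO libraries and no parental library had a peak at 6 of them, against 32.4% of all genes. None lacked a peak in every library, where 40.6% of all genes did. Of 10 genes for partners of E2F6 in the Polycomb complex PRC1.6, 2 had a peak in each parental library and 8 and 7 in TKO, beside the same shares of all genes. Both TKO libraries and no parental library had a peak at 5 of them, against 32.4% of all genes. HDAC2 and MGA had peaks in all 4 libraries, as did 10.9% of all genes. HDAC2, a histone deacetylase, had percentiles of 79.9 and 71.7 in the parental line and 96.7 and 98.1 in TKO. MGA, a Max partner and a scaffold of the complex, had percentiles of 72.2 and 62.8 in the parental line and 96.3 and 95.9 in TKO. Over all genes with a peak, the medians were 56.7 and 56.8 in the parental line and 71.8 and 71.1 in TKO. RYBP and YAF2, named after their values were seen, had no peak in any library, as was the case for 40.6% of all genes.

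Of 25 classical E2F target genes, 7 and 5 had a peak in the parental libraries, against 13.9% and 15.5% of all genes, and 24 and 22 in TKO, against 54.5% and 55.4%. Both TKO libraries and no parental library had a peak at 14 of them, a class with 32.4% of all genes. The 4 with peaks in all libraries, a class with 10.9% of all genes, were MCM7, MCM3, RRM2 and RRM1. MCM7 and MCM3 are subunits of the replicative helicase, and RRM2 and RRM1 are subunits of ribonucleotide reductase. MCM7 had percentiles of 94.95 and 97.7 in the parental line and 93.9 and 98.0 in TKO. RRM2 had 48.2 and 92.7 in the parental line and 93.7 and 96.4 in TKO. MCM3 had 37.2 and 32.0 in the parental line and 87.5 and 81.8 in TKO, and RRM1 had 53.3 and 54.1 in the parental line and 22.1 and 63.6 in TKO. These percentiles too come from lists of unlike length. Both TKO libraries had peaks at 22 of the 25 targets and at 7 of 10 genes in each of the other lists, the members included, where 50.6% of all genes had them.

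**Figure D5:**
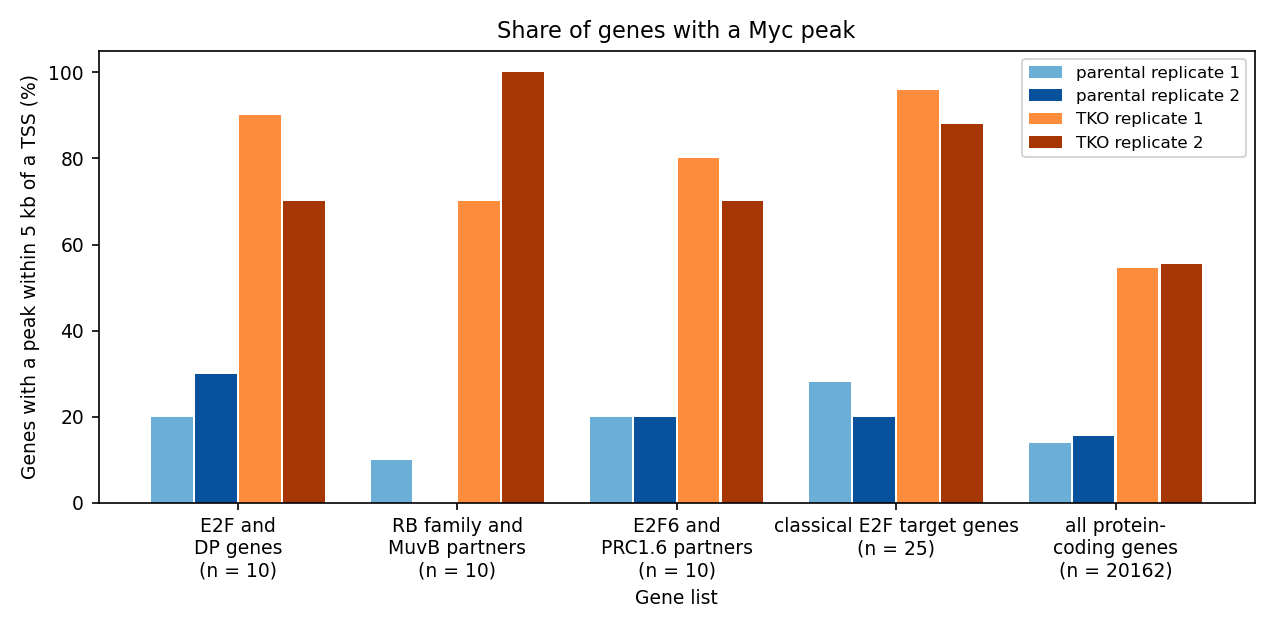
Share of genes with a Myc peak within 5 kb of a TSS (y axis, percent) in each library, for the E2F and DP genes, the pathway lists and all protein-coding genes. The bars of the members stand for 2, 3, 9 and 7 of 10 genes, and all genes lie at 13.9%, 15.5%, 54.5% and 55.4%.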

How the data were processed

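Myc ChIP-seq was done in parental MDA-MB-231 and TKO cells, 2 libraries each, which the study calls biological replicates. The other 2 of the 6 samples were input chromatin and were not analysed here as files. The authors aligned single-end reads to hg19 with Novoalign (3.08.02) and called peaks in each library with MACS2 (2.1.1.20160309), versions as given in the submitters' processing notes. How duplicate reads were handled is not given in the sources used here. The deposited lists give for each peak the fold by which summit reads exceed the local background as the authors' ratio, a −log10 p-value, a −log10 q-value and a score (the −log10 q-value times 10, cut to a whole number). The lowest −log10 q-value was 2.03 to 2.07, so the lists end near a q-value of 0.01.

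Summit reads were solved from fold and p-value. A whole number of reads fitted every peak's −log10 p-value to within 0.002 (100% of each list), but only 10.6% to 14.2% of peaks were fitted at a wrong scale. The genome-wide background of a library was taken as the lowest local background solved among its peaks. Depth assumes a genome of 2700000000 bases and takes the width of the narrowest peak as the length of an extended read. PCR reads are not independent molecules, so intervals cover counting error only.

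Groups and replicate numbers came from sample titles. GENCODE v44 lifted to GRCh37 gave 22 basic TSS for the 10 members. Heights were tested over libraries with a two-sided exact permutation test (6 arrangements). The libraries are separate samples, and p-values measure the spread between them. The titles do not say whether libraries of the same number were prepared together, and the main test did not pair them. Their height deviations, centred per library, had a correlation of 0.0725 over 2190 genes, which cannot exclude a shared preparation. All members are described. Of the other lists, genes named were up to 4 with peaks in all libraries, by mean percentile, and RB family and MuvB genes with no peak. Members and lists were chosen with earlier results of these data known. Alternatives were −log10 q-value or fold of at least 5, equal lists, a TSS window of 1 kb, nearest TSS, all transcripts, ranking by −log10 p-value, an E-box window of 100 bp, non-canonical E-boxes, deposited fold, a replicate block and each library left out. Steps were tested on simulated data. Python 3.11.15, numpy 2.4.6, pandas 2.3.3, scipy 1.17.1, pysam 0.24.0, matplotlib 3.10.9 and samtools 1.23.1 were used.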

Additional observations from a re-analysis of the deposited data

How the results depend on the processing

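Of 90 values recomputed under an alternative, 78 were labelled the same and 12 moved. Only height ratios could change direction, and 0 did. The single ratios of E2F5 and E2F6 had no other limit. Some alternatives could not alter a value, such as the replicate block for a ratio or a parental library left out for the TKO percentile. The count of 78 includes these and is no measure of stability. With equal lists of 3720 peaks, members with peaks in both TKO libraries and no parental library went from 4 to 1. The share of all genes in that class went from 32.4% to 2.62%. The percentile of the strongest TKO peak, as the mean of the medians of the 2 TKO libraries, went from 83.3 to 61.8. Members with an E-box at the strongest TKO summit went from 2 to 0. Equal lists by construction drop most TKO peaks. With a fold of at least 5 the percentile was 73.4 and the E-box count 1. Counting only the nearest TSS removed E2F5, so members bound in all 4 libraries went from 2 to 1, and the percentile was 70.6. The median TKO over parental ratio of height over these members went from 2.55 (E2F5 and E2F6) to 1.78 (E2F6 alone). With non-canonical E-boxes included the E-box count was 4.

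With each library left out in turn, that ratio was 1.82 to 2.80, the percentile 76.7 to 89.8, the E-box count 0 to 2 and the count of members in TKO only 4 to 6. The E-box count was 0 without TKO replicate 1. The ratio was 1.82 without parental replicate 1, when E2F3 joined E2F5 and E2F6, and TFDP1 and E2F1 joined the TKO class without TKO replicate 2. The E2F5 ratio of 3.66 was 2.94 to 4.55 and the E2F6 ratio of 1.78 was 1.49 to 2.13. With the replicate block the ratios were 3.66 and 1.78 and the exact sign-flip test gave p = 0.500, the smallest it can give. Heights rest on 12 to 83 summit reads, and peaks below the lists' thresholds were not detectable.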

Other observations

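Beyond 5 kb from a TSS, few Myc peaks lay within the bodies of the members. E2F7 had one in TKO replicate 2, in an intron at +33538 bp, with height 20.6 and percentile 21.6. TFDP2, the member without a peak near its basic TSS, had intronic peaks in TKO at -60145 bp in replicate 1 (height 11.2, percentile 33.9) and at +37694 and -59793 bp in replicate 2 (heights 11.3 and 10.3, percentiles 58.4 and 4.95). The peaks at negative offsets did not overlap between the replicates. None of these 4 peaks had a canonical E-box within 50 bp of the summit, and the parental libraries had 0 such peaks.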
